A study of Mus musculus with 12 samples.

Results

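The genes described here are the 10 members of the activator protein 1 (AP-1) group and its small Maf relatives, namely Fos, Fosb, Fosl1, Fosl2, Jun, Junb, Jund, Atf3, Maff and Mafk. They were chosen by gene symbol from the 20295 genes of the count table, and all 10 were abundant enough to be tested. That choice, like that of the gene lists below, was made with earlier results of these data known. Shares of all genes given beside their counts are therefore description and no test of the set. The samples were mature adipocytes floated from collagenase-digested epididymal white adipose tissue (eWAs) of lean male C57/BL6J mice, whose age is not given in the sources used here. Cells were held in a hydrogel at 50000 cells per well for 2 days before treatment. The 4 groups, each with 3 RNA-seq libraries, were vehicle (DMSO), the pan β-adrenergic agonist isoproterenol (ISO) for 3 h, lipase inhibitors alone (Lip), and lipase inhibitors followed by ISO for 3 h (Lip+ISO). The inhibitors named in the study's methods are Atglistatin, against adipose triglyceride lipase (ATGL), and CAY10499. The latter is given there as acting against both hormone-sensitive lipase (HSL) and monoacylglycerol lipase (MGL). All groups shared the tissue digestion and the culture, so each holds the response of cells that had been taken out of the tissue, and no group represents fat tissue in the animal. The comparisons ask how AP-1 genes respond to β-adrenergic stimulation. They also ask whether that response differs with inhibitors of lipolysis, the release of fatty acids from stored triglyceride. The study's text and legends give no measure of lipolysis in these cultures of eWAs.

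AP-1 is a family of basic leucine zipper proteins that bind DNA as dimers. Proteins of the Fos family pair with those of the Jun family, Jun proteins can also pair with each other or with ATF3, and the composition of the dimer affects how strongly a target gene is transcribed. Small Maf proteins such as MAFF and MAFK have a zipper but no transactivation domain, and they pair with Cap'n'collar proteins such as NRF2 (Nfe2l2) at related sites. Several of the genes, above all Fos, Fosb, Junb and Atf3, are immediate early genes that many cell types transcribe within minutes of a stimulus. Cyclic AMP, which rises when β-adrenergic receptors are engaged, acts on transcription in part through CREB, a factor that binds the cyclic AMP response element (CRE), whose full form is TGACGTCA and whose core is TGACG.

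The sequences just before the start of the genes are shown for Fosb, Junb and Fos, which had the largest changes with ISO, for Maff, whose stretch holds the full element, and for Mafk, which was not called with ISO. Each stretch is the 150 bases before the annotated start in RefSeq (build GRCm38.p6), read 5′ to 3′ on the strand of the gene, with every match of TGACG on either strand in capitals. The stretch of Fos lies at chr12:85473740-85473889 on the plus strand, that of Fosb at chr7:19310046-19310195 on the minus strand and that of Junb at chr8:84978749-84978898 on the minus strand. The stretch of Maff, at the middle one of its 3 annotated starts, lies at chr15:79347370-79347519 on the plus strand and that of Mafk at chr5:139791386-139791535 on the plus strand.
Fos: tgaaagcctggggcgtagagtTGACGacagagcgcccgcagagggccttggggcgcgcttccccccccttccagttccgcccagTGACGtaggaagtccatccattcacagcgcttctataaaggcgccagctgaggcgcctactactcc
Fosb: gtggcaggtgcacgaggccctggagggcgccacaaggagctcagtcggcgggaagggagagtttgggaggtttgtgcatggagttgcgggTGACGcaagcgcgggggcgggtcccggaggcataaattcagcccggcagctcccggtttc
Junb: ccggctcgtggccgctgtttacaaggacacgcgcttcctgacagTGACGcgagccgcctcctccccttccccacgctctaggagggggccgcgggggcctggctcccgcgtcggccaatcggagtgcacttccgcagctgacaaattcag
Maff: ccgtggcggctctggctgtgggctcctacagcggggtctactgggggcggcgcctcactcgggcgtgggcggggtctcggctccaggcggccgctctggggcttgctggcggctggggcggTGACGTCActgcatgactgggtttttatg
Mafk: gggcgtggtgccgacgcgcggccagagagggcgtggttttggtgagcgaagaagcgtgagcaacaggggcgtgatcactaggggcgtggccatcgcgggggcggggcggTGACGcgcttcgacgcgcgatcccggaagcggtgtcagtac

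Promoter windows of 300 bases, from 250 before the start to 50 from the start on, were given for 9 of the 10 members, Fosl1 being the member without one, and came to 11 windows because of the 3 starts of Maff. Positions are counted with 0 at the start base. The core TGACG was in 7 of the 11 windows, against 20.8% of all 32851 windows of the same length. It lay at -129 to -125 and -66 to -62 in Fos, at -60 to -56 in Fosb, at -106 to -102 in Junb and at -41 to -37 in Mafk. On the opposite strand it lay at -7 to -3 in Atf3 and at -122 to -118 in the last window of Maff. The full palindrome TGACGTCA, which contains the core on both strands, was in 1 of the 11 windows, at -29 to -22 in the middle window of Maff, and in 1.79% of all windows. The windows of Fosl2, Jun and Jund held neither. The AP-1 site TGANTCA was in 0 of the 11 windows and in 7.81% of all windows, and the CArG box, to which serum response factor binds, in 0 and in 1.63%. CCAAT was in 3 of the 11 windows (37.4% of all) and TATAAA in 2 (13.6% of all). These matches describe the letters in the windows, with both strands searched, and carry no test. Bases more than 250 before the start were not searched, so sites further upstream are not covered. Variants of these patterns were not searched either, such as the TGACATCA in the window of Jun and in the last window of Maff.

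The libraries held 22632220 to 43707557 counts in total, and the lowest count of any of the 10 genes in any library was 133. Levels are given in CPM, the count of a gene relative to the size of its library after TMM scaling, which allows for differences in total and in the make-up of the libraries. The summed level of 10 adipocyte markers was 27576 to 48968 CPM in the 12 libraries, and 8 lymphocyte markers each stayed under 1 CPM. Lip replicate 3 stood apart from the other 11 libraries on the third principal component (23.1, with 7.39% of the variance), and calls that change without it are given beside the result. Genes were called higher or lower where edgeR's quasi-likelihood test gave an adjusted p of 0.05 or less, and fold changes are given as log2 values with their standard error (SE).

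**Figure D1:**
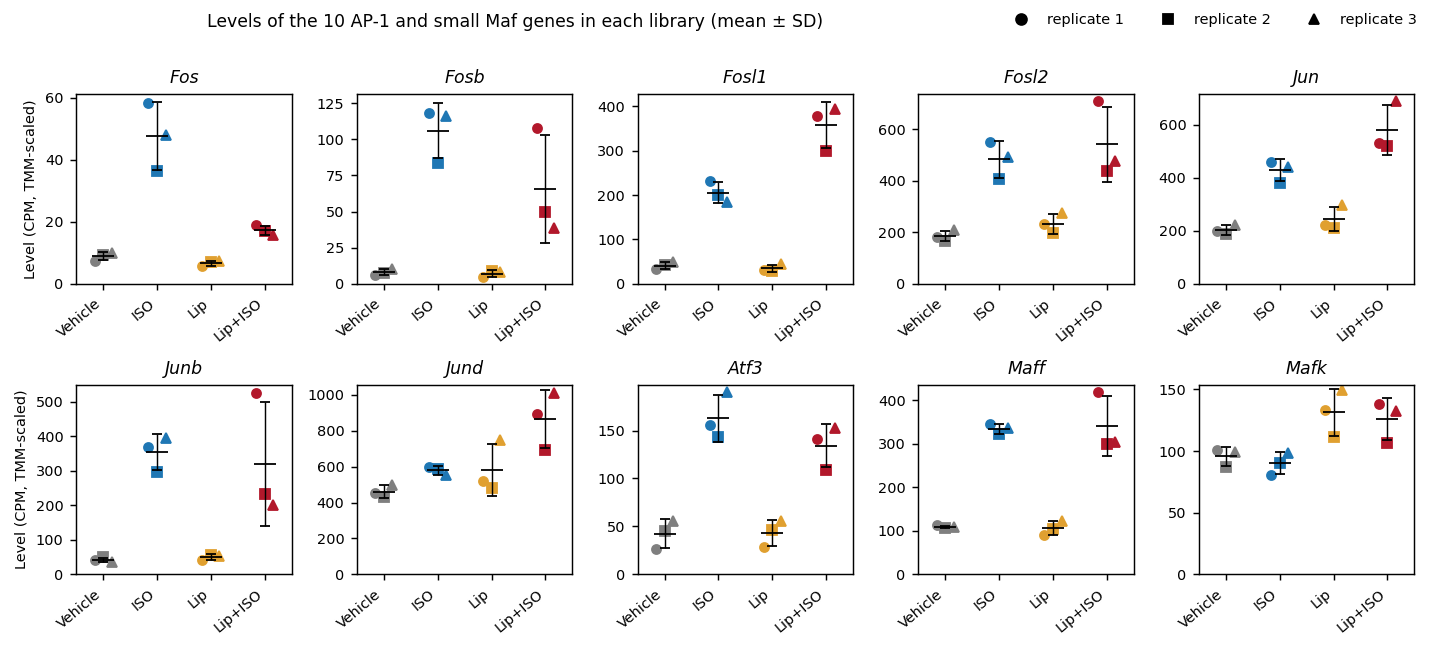
Level of each of the 10 genes in CPM (vertical axes, each starting at 0) in the 12 libraries, by group and replicate, with the mean and SD of 3 libraries per group as bars. The ISO and Lip+ISO libraries of Fos, Fosb, Fosl1, Fosl2, Jun, Junb, Atf3 and Maff sit above all vehicle and Lip libraries, and in Fos the Lip+ISO libraries (15.8 to 18.8 CPM) sit below those with ISO alone (36.5 to 58.4 CPM).

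ISO raised 8 of the 10 genes over vehicle, by 1.07 to 3.71 on the log2 scale, and lowered 0. Of all 13543 genes tested, 12.3% were called higher and 13.9% lower in this comparison. With a fold change of at least 1 log2 unit also required, the same 8 members were called higher and 0 lower, against 5.68% and 1.8% of all genes. Over the 10 members the median was 1.77 on the log2 scale, against 0.00 over all genes. Jund and Mafk were the members that were not called.

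In the Fos family, whose proteins need a Jun partner to bind DNA, all 4 genes rose. Fos (mm9, chr12:86814851-86818219, plus strand) had 7.52, 9.40 and 10.1 CPM in the vehicle libraries and 58.4, 36.5 and 48.0 CPM in the ISO libraries, replicates 1 to 3 in order. The lowest ISO library was thus well above the highest vehicle library, and the log2 fold change was 2.403 (SE 0.18, adjusted p = 1.25e-06). Fosb (chr7:19888045-19895394, minus strand), whose gene also gives a shorter protein known from sustained stimulation of neurons, went from 6.22, 7.72 and 10.45 CPM to 118, 83.9 and 116 CPM. This was the largest change among the 10 members, a log2 fold change of 3.71 (SE 0.38, adjusted p = 1.78e-05) or 13.1-fold, and it ranked 53 of 13543 genes from the highest.

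Fosl1 (chr19:5447698-5455938, plus strand), which encodes FRA1, had 33.2, 42.0 and 48.3 CPM with vehicle and 231, 201 and 184 CPM with ISO. Its log2 fold change was 2.32 (SE 0.18, adjusted p = 1.76e-06). Fosl2 (chr5:32438845-32460212, plus strand), which encodes FRA2, started higher, at 168 to 209 CPM, and reached 408 to 549.9 CPM, which is 1.38 on the log2 scale (SE 0.18, adjusted p = 1.60e-04). FRA1 and FRA2 lack the strong transactivation domains of FOS and FOSB. In both genes every ISO library was above every vehicle library.

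Fosl1 overlaps Ccdc85b, which lies on the opposite strand, and the table counted Fosl1 over 550 base pairs, whereas its exons cover 1707 base pairs in the GENCODE annotation of the same assembly. Outside the exon of Ccdc85b the annotation leaves 545 base pairs of Fosl1. Ccdc85b was counted over 3091 base pairs, where the annotation gives 4387 in all and 3225 outside the exons of Fosl1. Both counted lengths were thus near those that leave out the shared bases. Nothing in the sources used here states that the counting used strand, so reads of the overlapping genes cannot be told apart with certainty. Ccdc85b itself was called higher with ISO, by a smaller log2 fold change of 0.78 (SE 0.08, adjusted p = 1.52e-05). No other member overlaps another gene of the table.

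In the Jun family, whose members pair with Fos proteins or with each other, Jun and Junb rose. Junb (chr8:87500808-87502647, minus strand), often described as a brake on JUN in proliferating cells, went from 40.7, 49.1 and 37.1 CPM to 368, 295 and 396 CPM, or 3.06 on the log2 scale (SE 0.31, adjusted p = 1.73e-05). Jun (chr4:94715727-94718913, minus strand), the founding member, went from 188 to 224 CPM to 383 to 461 CPM, which is 1.07 on the log2 scale (SE 0.14, adjusted p = 1.86e-04). Jund (chr8:73221638-73224515, plus strand), which most tissues hold at a steady level, had 454, 432 and 499 CPM with vehicle and 599.9, 589 and 551 CPM with ISO. The groups of Jund did not overlap, yet its log2 fold change of 0.33 (95% confidence interval -0.02 to 0.68) missed the threshold (adjusted p = 0.155).

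Atf3 (chr1:192994176-193007212, minus strand), a stress-responsive factor that pairs with Jun proteins, had 26.6, 45.2 and 55.9 CPM with vehicle and 155, 143 and 189.8 CPM with ISO, which gives 1.94 on the log2 scale (SE 0.27, adjusted p = 2.25e-04). The vehicle libraries of Atf3 spread more widely than those of most other members, with an SD of 14.9 CPM around a mean of 42.6 CPM. Of the small Mafs, Maff (chr15:79178108-79189506, plus strand) went from 107 to 113 CPM to 323 to 346 CPM, or 1.61 on the log2 scale (SE 0.13, adjusted p = 2.98e-06). Mafk (chr5:140267490-140278606, plus strand) had 101, 87.0 and 99.1 CPM with vehicle and 80.9, 90.7 and 98.8 CPM with ISO. Its groups overlapped, and its log2 fold change was -0.09 (95% confidence interval -0.36 to 0.19, adjusted p = 0.642). Between the groups 9 of the 10 members did not overlap, 9 being higher with ISO, where 20.7% of all genes were higher and 22.6% lower without overlap.

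ISO also raised AP-1 genes in cells whose lipases were inhibited. In Lip+ISO against Lip, 9 of the 10 members were called higher and 0 lower, where 11.5% of all genes were called higher and 15.8% lower. With a change of at least 1 log2 unit 8 members were called higher and 0 lower, against 4.19% and 3.16% of all genes, and the groups of 8 members did not overlap, all being higher, against 17.2% of all genes higher and 22% lower. Over the 10 members the median was 1.4975 on the log2 scale, against -0.00 over all genes. The 8 members that rose with ISO alone also rose here, each by at least 1 log2 unit in both comparisons. This comparison uses other libraries than ISO against vehicle.

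Fosl1 had the largest response with inhibitors, from 31.8, 29.8 and 44.6 CPM in the Lip libraries to 379, 298 and 394 CPM in the Lip+ISO libraries, which is a log2 fold change of 3.33 (SE 0.19, adjusted p = 5.37e-08) or 10.1-fold. Fosb went from 4.57, 8.595 and 8.25 CPM to 108, 49.6 and 38.5 CPM, or 3.19 on the log2 scale (SE 0.37, adjusted p = 3.34e-05). Junb went from 41.3, 55.4 and 54.0 CPM to 525, 232 and 199.8 CPM, or 2.67 on the log2 scale (SE 0.31, adjusted p = 2.89e-05). In Fosb and Junb, Lip+ISO replicate 1 was far above the other libraries of its group, while every Lip+ISO library was above every Lip library. Fos went from 5.63, 6.99 and 7.25 CPM to 18.8, 17.0 and 15.8 CPM, or 1.38 on the log2 scale (SE 0.18, adjusted p = 7.10e-05).

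Maff, Atf3, Jun and Fosl2 rose by 1.69, 1.62, 1.25 and 1.21 on the log2 scale with inhibitors present, with adjusted p-values of 1.19e-06 to 5.17e-04. Jund was called here as well, with 519, 479 and 749.9 CPM in Lip and 894, 693 and 1012 CPM in Lip+ISO, a difference of 0.57 on the log2 scale (SE 0.16, adjusted p = 0.0194). The groups of Jund overlapped, since Lip replicate 3 was above Lip+ISO replicate 2, and the call was lost without any of 4 single libraries, namely Lip replicates 1 and 2 and Lip+ISO replicates 1 and 3 (adjusted p = 0.05003 to 0.0898). It was also lost without all libraries of replicate number 1 (0.184) or of number 2 (0.0622). Mafk was not called, at -0.06 (95% confidence interval -0.33 to 0.21, adjusted p = 0.770). The 8 other members were called higher in both responses to ISO whichever single library or replicate number was left out (15 fits each).

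**Figure D2:**
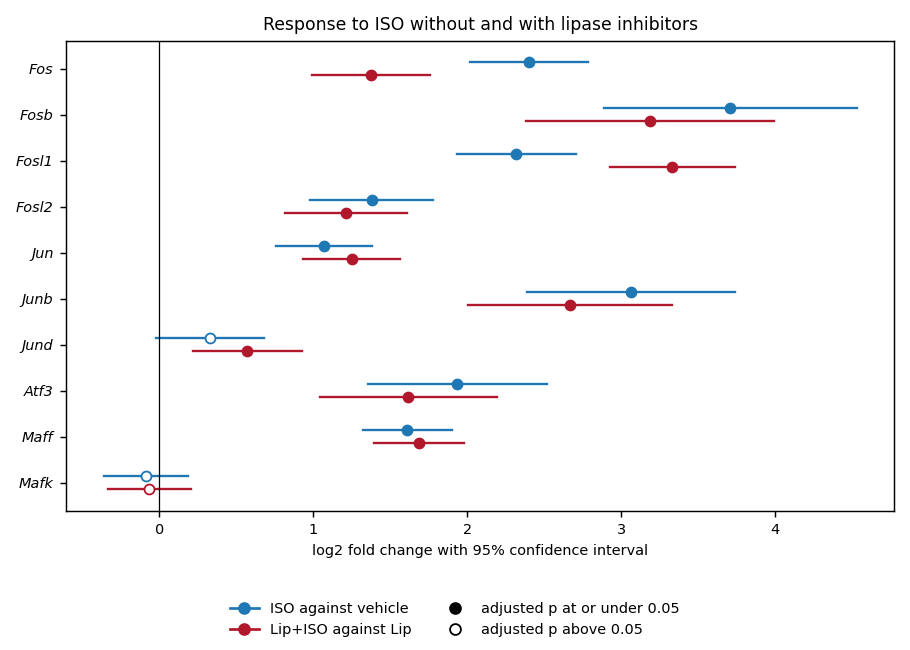
Response of the 10 genes to ISO as log2 fold change with its 95% confidence interval, without inhibitors (ISO against vehicle, blue) and with them (Lip+ISO against Lip, red), with filled points where the adjusted p was 0.05 or less. The intervals of Fos (2.02 to 2.79 without and 0.99 to 1.76 with inhibitors) and of Fosl1 (1.93 to 2.71 and 2.93 to 3.74) do not overlap, while those of the other 8 genes do.

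Whether the inhibitors changed the response to ISO was tested by the interaction, the response with inhibitors minus that without. By edgeR 0 of the 10 members were called in either direction, where 0.901% of all genes were called higher and 0.724% lower, and with at least 1 log2 unit 0.406% and 0.34%. An unadjusted p under 0.05 was reached by 2 of the 10 members, against 1868 of all 13543 genes tested. The 2 members were Fos and Fosl1, which moved in opposite directions. The response of Fos was smaller with inhibitors, by -1.03 on the log2 scale (SE 0.24, adjusted p = 0.0594), and that of Fosl1 larger, by 1.014 (SE 0.24, adjusted p = 0.0604). Both lay just outside the threshold in this fit, and inside it in 5 of 20 alternatives for Fos and 6 of 20 for Fosl1, DESeq2 among them (adjusted p = 0.00641 and 0.00267). Another was edgeR with replicate number as a block (adjusted p = 0.0316 for Fos and 0.0174 for Fosl1). The main fit leaves replicate number out, although 12 of 12 libraries correlated best with those of their own number. Fos was called without ISO replicate 2 (adjusted p = 0.0262), and Fosl1 without DMSO replicate 1 (0.0476), without Lip+ISO replicate 2 (0.0388) and without Lip replicate 3, where it was at 1.22 (0.0210). Over the 20 alternatives the adjusted p ranged from 0.00641 to 0.452 for Fos and from 0.00267 to 0.352 for Fosl1, and the sign of each stayed as given. The other 8 members had adjusted p-values of 0.702 to 0.973, and the widest interval among them, that of Fosb, ran from -1.60 to 0.56.

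In the presence of ISO, inhibitors lowered Fos and raised Fosl1, Jund and Mafk. That is 3 members higher and 1 lower in Lip+ISO against ISO, where 4.36% of all genes were called higher and 4.59% lower. Over the 10 members the median was 0.10 on the log2 scale, against -0.01 over all genes. With a change of at least 1 log2 unit 0 members were higher and 1 lower, against 0.79% and 1.2% of all genes. The groups of 5 members did not overlap, Fosl1, Jun, Jund and Mafk being higher and Fos lower, against 11.9% of all genes higher and 13.5% lower. This comparison shares the ISO libraries with ISO against vehicle and the Lip+ISO libraries with Lip+ISO against Lip, so its values are not independent of those above. Fos fell by 1.46 on the log2 scale (SE 0.17, adjusted p = 1.69e-04), a 2.76-fold lower level, and was called in all 15 fits that left libraries out. The 3 Lip+ISO libraries of Fos were within 15.8 to 18.8 CPM, below all ISO libraries and above all vehicle libraries.

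Fosl1 was 1.74-fold higher in Lip+ISO than in ISO (log2 fold change 0.80, SE 0.17, adjusted p = 0.0108), with the lowest Lip+ISO library at 298 CPM and the highest ISO library at 231 CPM. The call of Fosl1 was lost without ISO replicate 3 (adjusted p = 0.0584), and without all libraries of replicate number 2 (0.0690) or of number 3 (0.0647). Ccdc85b, the gene that overlaps Fosl1, rose by 0.68 in the same comparison (SE 0.08, adjusted p = 1.46e-04) and was called in the interaction at 0.76 (SE 0.11, adjusted p = 0.00391). Reads of Ccdc85b counted for Fosl1 were not measured, so their part in the values of Fosl1 was not tested.

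Jund was 0.58 higher on the log2 scale (SE 0.16, adjusted p = 0.0451) and Mafk 0.48 higher (SE 0.13, adjusted p = 0.0326), and neither group of Lip+ISO libraries overlapped that of ISO. These calls were close to the threshold. That of Jund was lost without any of 8 single libraries (each of the 3 vehicle and 3 ISO libraries, and Lip+ISO replicates 1 and 3), with adjusted p-values of 0.0592 to 0.155. It was also lost without replicate number 1, 2 or 3 (adjusted p = 0.1545, 0.0742 and 0.151). That of Mafk was lost without any of 4 (ISO replicates 1 and 2, Lip+ISO replicates 1 and 3), with adjusted p-values of 0.0905 to 0.101, and without replicate number 1 (0.219) or 3 (0.133).

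Jun, at 521 to 692 CPM in Lip+ISO and 383 to 461 CPM in ISO, did not overlap between these groups and had an adjusted p of 0.0788 (log2 fold change 0.44, SE 0.14), which was 0.0443 without Lip replicate 3. Fosb and Junb were not called, at -0.70 (SE 0.33, adjusted p = 0.224) and -0.15 (SE 0.29, adjusted p = 0.798). Both turned on Lip+ISO replicate 1. Without that library Fosb was at -1.27 (adjusted p = 0.0103), and Junb was at -0.71 (adjusted p = 0.0180), so that 3 members were then called lower and 1 higher, and the interaction of Junb was called at -0.96 (adjusted p = 0.0437). Fosl2, Atf3 and Maff had log2 fold changes of 0.17, -0.28 and 0.03, with adjusted p-values of 0.555 to 0.925.

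Inhibitors alone called 0 of the 10 members in Lip against vehicle, with edgeR and with DESeq2, where 0.00738% of all genes were called higher and 0.0443% lower, and with at least 1 log2 unit 0% and 0.0222%. An unadjusted p under 0.05 was again reached by 2 of the 10 members, against 582 of all 13543 genes tested. Fos was at -0.44 (SE 0.18), with 5.63 to 7.25 CPM in Lip and 7.52 to 10.1 CPM in vehicle, and Mafk was at 0.46 (SE 0.13), with 111 to 149.6 CPM in Lip and 87.0 to 101 CPM in vehicle. The groups did not overlap in either gene, where 5.19% of all genes were higher and 5.21% lower without overlap, and the adjusted p-values were 1.00 and 0.568. The difference of Mafk between Lip+ISO and ISO was of the same size, 0.48, and its interaction was 0.02 (95% confidence interval -0.36 to 0.41). Jund was at 0.34 in Lip against vehicle (95% confidence interval -0.02 to 0.69), beside 0.58 in Lip+ISO against ISO. The interaction of Jund was 0.24 (95% confidence interval -0.26 to 0.74).

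**Figure D3:**
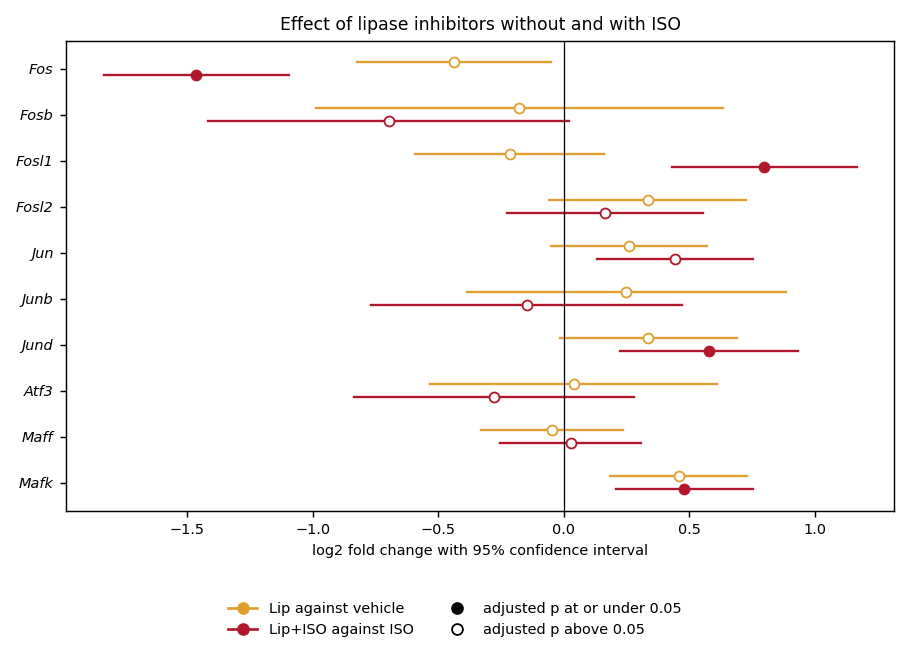
Effect of the lipase inhibitors on the 10 genes as log2 fold change with its 95% confidence interval, without ISO (Lip against vehicle, yellow) and with ISO (Lip+ISO against ISO, red), with filled points where the adjusted p was 0.05 or less. Fos at -1.46, Fosl1 at 0.80, Jund at 0.58 and Mafk at 0.48 are filled with ISO, and no point is filled without ISO.

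The spread between libraries differed between the members. In CPM it was widest in Lip+ISO for Fosb, Fosl1, Fosl2, Jun, Junb, Jund and Maff, in ISO for Fos and Atf3, and in Lip for Mafk. In Lip+ISO, Fosb had a mean of 65.4 ± 37.3 CPM (SD, n = 3) and Junb of 319 ± 179 CPM, while Fos had 17.2 ± 1.52 CPM there and 47.6 ± 10.96 CPM in ISO. Replicate 1 was the highest Lip+ISO library for Fos, Fosb, Fosl2, Junb, Maff and Mafk, and replicate 3 for Fosl1, Jun, Jund and Atf3. In ISO, replicate 2, which had the most counts of all libraries, was the lowest for Fos, Fosb, Fosl2, Jun, Junb, Atf3 and Maff. Of the 10 members, 9 lay above their group mean in Lip+ISO replicate 1 and 0 in Lip+ISO replicate 2, and all 10 lay above it in Lip replicate 3. The part of library differences in these patterns was not tested.

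**Figure D4:**
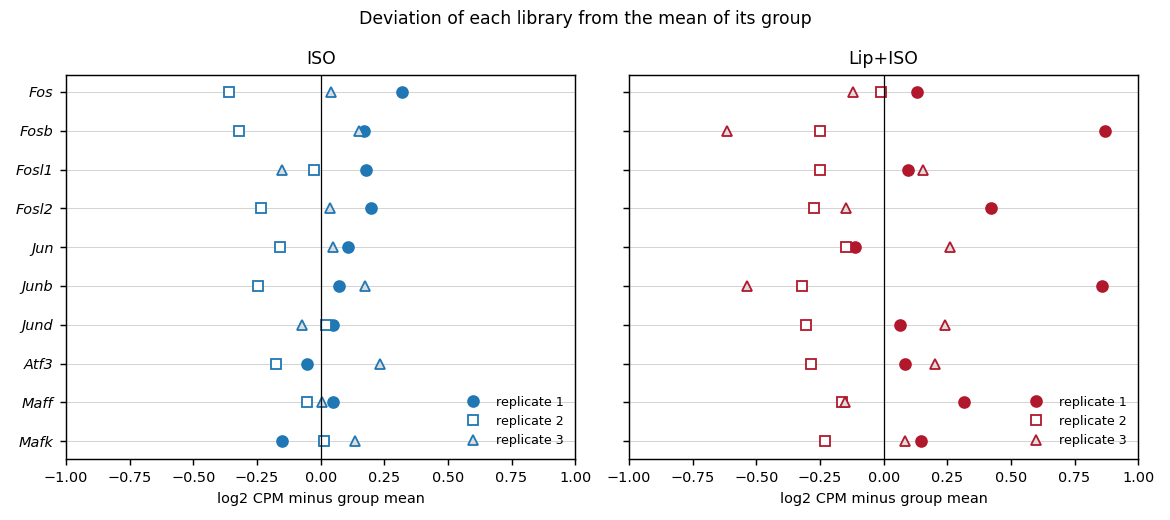
Deviation of each library from the mean of its group in log2 CPM (horizontal axes) for the 10 genes, in ISO (left) and Lip+ISO (right), with 1 symbol per replicate. In Lip+ISO, replicate 1 of Fosb and Junb sits furthest to the right, with 108 and 525 CPM, while the Lip+ISO libraries of Fos lie close together.

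Because counts grow with the length counted, levels of different members were set beside each other per kilobase (kb) of counted exon. For Fosl1 this rests on its 550 counted base pairs, close to the 545 that its annotated exons leave outside the exon of Ccdc85b. Its place with the 1707 base pairs of all its annotated exons, an alternative chosen after the data had been seen, is given beside it. That longer length includes bases outside the counted length and so lowers the level of Fosl1, and the counted length stays the main reading. The summed level of the 10 members was 477 ± 36.7 CPM per kb in vehicle (SD, n = 3), 1335 ± 91.9 in ISO, 543 ± 107 in Lip and 1726 ± 273 in Lip+ISO. In vehicle, Jund was the highest at 160.3 CPM per kb, followed by Fosl1 (74.9), Jun (64.1) and Maff (60.9), then Mafk (33.9), Fosl2 (31.7), Junb (23.0) and Atf3 (21.5), and Fos (4.303) and Fosb (2.15) were the lowest. Fosl1, Jun and Maff overlapped with their neighbours in that order, as did Mafk with Fosl2 and Junb with Atf3. With the longer length Fosl1 had 24.1 CPM per kb and came 6th, overlapping Junb and Atf3.

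With ISO, Fosl1 came first at 373 CPM per kb, without overlap with Jund at 202. With the longer length it had 120.2 CPM per kb and came 5th, after Jund, Junb, Maff and Jun, overlapping Jun. Junb rose to 192 CPM per kb, where its libraries overlapped those of Jund above it and of Maff (186) below it. Jun (135) came next, Fosl2 and Atf3 overlapped at 82.4 and 82.3, and Mafk (31.9), Fosb (28.1) and Fos (22.8) ended the order, each overlapping the next. Fos and Fosb therefore stayed among the least abundant members per kb after their large rises.

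With inhibitors alone the order was led by Jund (202 CPM per kb), Jun (76.8), Fosl1 (64.3) and Maff (58.9), and in Lip+ISO by Fosl1 (649), Jund (301), Maff (190), Jun (183) and Junb (173). The last 3 of these overlapped with each other. With the longer length Fosl1 came 8th in Lip (20.7 CPM per kb) and 2nd in Lip+ISO (209 CPM per kb), after Jund and overlapping Maff, Jun and Junb. Fos was the lowest member in Lip+ISO, at 8.23 CPM per kb, and Fosb the next lowest at 17.3, and their libraries did not overlap.

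The Jun family held 52.0% ± 1.63 (SD, n = 3) of the summed level per kb in vehicle and 39.6% ± 1.14 in ISO, while the Fos family went from 23.6% ± 2.01 to 37.9% ± 2.45. In Lip the shares were 56.3% ± 1.17 and 20.1% ± 0.604, and in Lip+ISO 38.0% ± 0.871 and 44.5% ± 1.28. The ratio of Fos family to Jun family level was thus 0.397 to 0.497 in the vehicle libraries, 0.865 to 1.04 in ISO, 0.348 to 0.370 in Lip and 1.11 to 1.20 in Lip+ISO, with no overlap between any of the groups. With the longer length of Fosl1 the ratio was 0.229 to 0.271, 0.4495 to 0.521, 0.205 to 0.227 and 0.487 to 0.510, so that ISO and Lip+ISO overlapped. Jund alone fell from 33.7% ± 1.20 of the sum in vehicle to 15.1% ± 1.15 in ISO, although its own level was not lower.

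Within the Fos family Fosl1 held 66.0% of the level per kb in vehicle, 73.7% in ISO, 58.6% in Lip and 84.7% in Lip+ISO by the counted length, and 38.6%, 47.6%, 31.4% and 64.3% by the longer length. Its share of all 10 members was 15.6% ± 1.95 in vehicle, 28.0% ± 2.54 in ISO, 11.8% ± 0.404 in Lip and 37.7% ± 2.54 in Lip+ISO. With the longer length these shares were 5.64%, 11.1%, 4.13% and 16.3%, in the same order of groups. By the counted length, the ratio of Fosl1 to Fos per kb was 16.8 to 18.2 in the vehicle libraries, 14.6 to 20.9 in ISO and 16.2 to 23.4 in Lip, and 66.5 to 94.8 in Lip+ISO. The first 3 groups overlapped, and every Lip+ISO library was above them. The ratio of Maff to Mafk was 1.73 to 1.93 in vehicle and 5.33 to 6.72 in ISO.

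**Figure D5:**
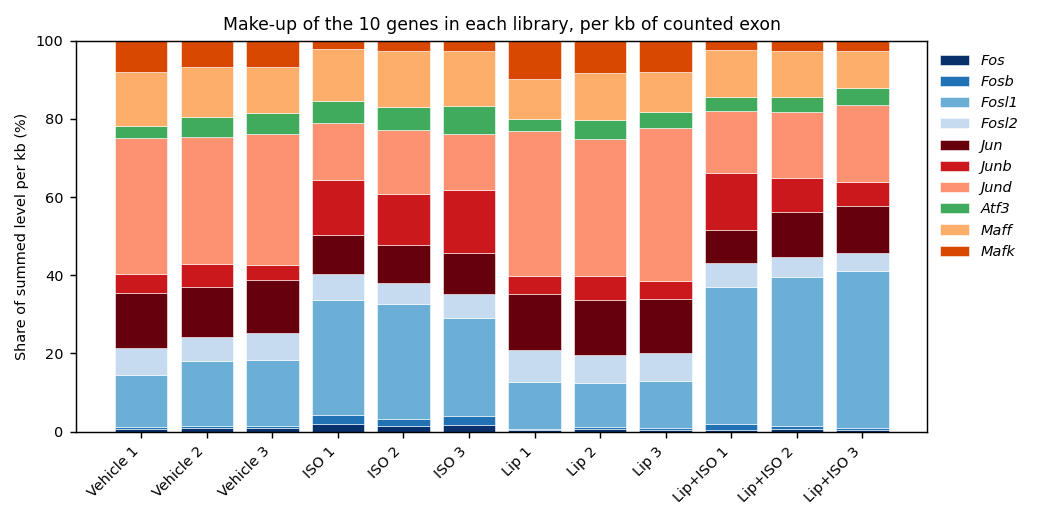
Share of each of the 10 genes in their summed level per kb of counted exon, in percent (vertical axis), with 1 bar for each of the 12 libraries. Jund takes 33.7% on average in vehicle and 15.1% in ISO, and Fosl1, whose counted length is short, takes 15.6% and 28.0%, and 37.7% in Lip+ISO.

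Genes whose profile over the 12 libraries was most like that of a member were found by the root mean square difference in log2 CPM after centring each gene, among 11912 other genes. For Fos these were Etv3 (0.26) and Plk3 (0.26), against a median of 1.13 over all candidates. Plk3, a polo-like kinase, had 10.6, 45.1, 7.61 and 15.3 CPM on average in vehicle, ISO, Lip and Lip+ISO, and its interaction was called at -1.09 (SE 0.23, adjusted p = 0.0323). Etv3 was at -1.04 in the interaction (SE 0.25, adjusted p = 0.0643). For Fosl1 the nearest were Adamts9 (0.16) and Ackr3 (0.25), a secreted protease and a chemokine scavenger receptor, against a median of 1.49. Adamts9 had 28.4, 169, 24.7 and 266 CPM in the 4 groups, and its interaction was called at 0.86 (SE 0.17, adjusted p = 0.0274). All these genes were selected for a profile like that of the member in the same libraries. Their interactions therefore share its direction by selection and give no separate support for those of Fos and Fosl1.

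For Fosb the nearest were Cytip (0.35) and Hilpda (0.37), the latter encoding a lipid droplet protein that inhibits ATGL, and for Junb they were Nepn (0.29) and Csrnp1 (0.29). Fosl2 lay nearest to Slc3a2 (0.17) and Vasn (0.20), Jun to Tob2 (0.14), Atf3 to Hspa1a (0.25) and Odc1 (0.25), and Maff to Hk2 (0.15) and Ell2 (0.16). The profiles of Jund and Mafk varied least and lay nearest to Ptbp1 (0.14) and Neu1 (0.14), and to Snx18 (0.13) and Fam83h (0.16). Among the members themselves the closest pair was Fosl2 and Jun, at 0.24.

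Other genes of the AP-1 pathway were taken as 4 lists, whose counts are to be read beside the shares of all tested genes. Those were 12.3% called higher and 13.9% lower in ISO against vehicle, and 11.5% and 15.8% in Lip+ISO against Lip. In Lip+ISO against ISO they were 4.36% and 4.59%. Of 13 tested AP-1 and Cap'n'collar relatives outside the 10 members, ISO raised 2 and lowered 4, with a median log2 fold change of 0.15. Nfe2l2, the partner of small Mafs, rose by 0.67 (SE 0.09, adjusted p = 2.11e-04). Bach2 and Nfe2l3 fell, at -1.45 and -0.84. With inhibitors present, ISO raised 2 (Nfe2l2 by 1.11 and Bach1, a repressor that pairs with small Mafs, by 0.56) and lowered 3 (among them Bach2 at -1.40 and Nfe2l3 at -1.08), with a median of 0.07. In Lip+ISO against ISO 2 were higher, Nfe2l2 (0.42) and Maf (0.39), and 1 lower, with a median of 0.14.

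Of 16 tested kinases and regulators of AP-1 proteins, ISO raised 2 and lowered 3, with a median of -0.13. Among all genes 12.3% were called higher and 13.9% lower. Map2k4, a kinase upstream of JNK, which phosphorylates JUN, rose by 0.36 (adjusted p = 0.00513) and Map2k1, a kinase of the ERK pathway, by 0.26. Map3k1 (-1.19) and Mapk14 (-0.48), the p38α kinase, were lower. With inhibitors present 4 rose and 6 fell, with a median of -0.15, against 11.5% and 15.8% of all genes. There Map2k4 rose by 1.05 (SE 0.08, adjusted p = 7.54e-07), and Mapk14 (-0.76) and Map3k1 (-0.87) were lower. In Lip+ISO against ISO 1 was higher, Map2k4 at 0.72, and 1 lower, Map3k5 at -0.54, with a median of 0.04. The shares of all genes were 4.36% higher and 4.59% lower. The interaction of Map2k4 was called at 0.69 (SE 0.11, adjusted p = 0.00767).

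Of 24 genes that textbooks give as targets of AP-1, ISO raised 15 and lowered 0, with a median log2 fold change of 1.06. Among all genes 12.3% were called higher and 13.9% lower. The cytokines Il11 and Il6 led, with 3.29 (SE 0.37, adjusted p = 4.22e-05) and 2.61 (SE 0.27, adjusted p = 2.08e-05), from mean levels of 2.28 and 1.097 CPM in vehicle to 22.3 and 6.599 CPM. With inhibitors present ISO raised 8 and lowered 1, with a median of 0.70. Il6 rose by 2.55 and Il11 by 1.92. In Lip+ISO against ISO 0 were higher and 3 lower, with a median of -0.24. Among the 3 was Hmox1, the heme oxygenase (-1.01, SE 0.28, adjusted p = 0.0421). Its level was 2550 ± 1346 CPM in Lip+ISO (SD, n = 3) and 5153 ± 185 CPM in ISO. Vegfa, the vascular growth factor, was at -0.66 (SE 0.17, adjusted p = 0.0299), with 241 ± 75.3 CPM in Lip+ISO and 380 ± 55.7 CPM in ISO. Vegfa was named after its value was seen. The interaction called 0 of the 24. Most of these genes are also controlled by other factors.

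Of 20 genes known to rise when tissue is dissociated by enzymes, which include other immediate early genes, ISO raised 17 and lowered 0, with a median of 1.20, and with inhibitors 18 and 1, with a median of 0.90. Nr4a1 rose by 4.42 (SE 0.30) and 3.96 (SE 0.29) and Klf4 by 4.20 (SE 0.26) and 3.75 (SE 0.26) in the 2 comparisons, while Klf6 was lower with inhibitors (-0.51). In Lip+ISO against ISO 3 were higher, among them Socs3 at 1.64 (SE 0.11, adjusted p = 2.32e-06) and Gadd45b at 0.84, and 2 lower, Egr1 at -3.18 (SE 0.14, adjusted p = 2.25e-07) and Klf6 at -0.38, with a median of -0.03. Egr1, an immediate early zinc finger factor, went from 32.3 CPM in vehicle to 372 CPM in ISO and from 23.0 CPM in Lip to 41.1 CPM in Lip+ISO. Lip against vehicle called 0 genes in any of the 4 lists, in which medians lay between -0.01 and 0.23.

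Markers of other cells moved with some of the groups. Beside their counts stand the shares of all genes called, 12.3% higher and 13.9% lower in ISO against vehicle. These shares were 11.5% and 15.8% in Lip+ISO against Lip, and 4.36% and 4.59% in Lip+ISO against ISO. Macrophage markers (10 tested) summed to 41.3 to 47.2 CPM in vehicle, 79.3 to 117 in ISO, 44.7 to 45.9 in Lip and 57.1 to 92.8 in Lip+ISO, and 5 of the 10 were called higher with ISO, 2 with ISO in the presence of inhibitors, and 1 lower in Lip+ISO than in ISO. Fibroblast and progenitor markers summed to 373 to 673, 738 to 1008, 508 to 532 and 449.5 to 643 CPM in the same order, with 4 of 10 called higher with ISO, 0 with ISO in the presence of inhibitors and 3 lower in Lip+ISO than in ISO. Mesothelial markers (7 tested) summed to 40.4 to 77.4, 90.5 to 118, 31.5 to 70.5 and 56.1 to 72.8 CPM, with 2 called higher with ISO, 1 with ISO in the presence of inhibitors and 1 lower in Lip+ISO than in ISO.

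Endothelial markers summed to 124 to 232, 223 to 428, 66.4 to 206 and 91.7 to 265 CPM, and 1 of 10 was called higher with ISO. Smooth muscle and pericyte markers (7 tested) summed to 256 to 409, 302 to 432, 332 to 399 and 209 to 309 CPM, with 1 called higher with ISO and 1 lower with ISO in the presence of inhibitors. Of the 10 adipocyte markers, 0 were called higher and 2 lower in each response to ISO, and in Lip+ISO against ISO 1 was higher and 1 lower. All these marker counts are to be read beside the shares of all genes given above. In bulk RNA fewer cells of a type and less RNA per cell cannot be told apart, and the part of other cells in the levels of the 10 members was not tested.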

How the data were processed

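RNA-seq was measured in 12 libraries of cultured mouse eWAs, and the titles of the samples gave the 4 groups of 3 and their replicate numbers. The deposited table gives raw read counts per gene with no normalization. The authors aligned reads to mm9 with STAR (2.4.2a), summarized counts per RefSeq gene with HOMER, allowing 1 read per position and length, and quantified exon reads with iRNA-seq. Gene span and counted exon length are deposited as base pairs. The study describes its RNA-seq as made from 3 independent experiments. Which experiment a replicate number stands for, and the strand of counting, are not given in the sources used here. The study's text and the sample titles name ISO as the stimulus of these cells, while a legend names SR-3420, and ISO was used here.

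The 10 members and all gene lists were chosen with earlier results of these data known. The tests used edgeR 4.0.16 under R 4.3.3. The filterByExpr function left 13543 of 20295 genes, which were scaled by TMM (factors 0.924 to 1.07) and fitted with 1 mean per group over all 12 libraries. Two-sided quasi-likelihood F-tests were followed by Benjamini-Hochberg adjustment across the whole set of tested genes, with a threshold of 0.05. The script was tested on simulated counts first. Among the 12 pairs of libraries within groups, none was a duplicate (chi-square per degree of freedom of at least 16.5). The text names all 10 members, the 2 nearest profiles of each called member (mean of at least 1 CPM, log2 CPM with a prior count of 2), and from each pathway list the 2 called genes with the largest change in each direction in 3 comparisons. Alternatives were RLE scaling, library totals, no filter, a replicate block, only the groups compared, DESeq2 1.42.0, a minimum of 1 log2 unit, and leaving out each library or replicate number. RefSeq promoters matched 9 of the 10 members by symbol. Some genes that the rule for named genes selects are not reported here, while the counts and medians of their lists include them.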

Additional observations from a re-analysis of the deposited data

How the results depend on the processing

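Over 21 alternative fits, 965 of 1040 values of a member in a comparison kept their direction and their side of the threshold, 28 lost a call, 20 gained 1 and 27 changed sign. The 8 members that rose with ISO were called in both responses in every fit. In the interaction, library totals called 1 member lower (Fos), and no filter on low counts, DESeq2 and the replicate block each called 1 higher (Fosl1) and 1 lower (Fos). With a minimum of 1 log2 unit, 0 members were higher in Lip+ISO than in ISO.

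Leaving out libraries gave 0 to 1 members called higher and 0 to 1 called lower in the interaction, and 0 to 4 higher and 1 to 3 lower in Lip+ISO against ISO. Fosl1 was called in the interaction without DMSO replicate 1, Lip replicate 3 or Lip+ISO replicate 2 (adjusted p = 0.0210 to 0.0476) and Fos without ISO replicate 2 (0.0262). Where 1 library was left out, its group kept 2.

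Replicate numbers were shared between groups. Same-numbered libraries deviated together with r of 0.04 to 0.37 over 18 pairs, 17 of them above 0.1, so the rule for pairing was not met. All the same, 12 of 12 libraries correlated best with their own number, and the main fit leaves out such shared variation. In the interaction the block called Fos at -1.02 (adjusted p = 0.0316) and Fosl1 at 1.01 (adjusted p = 0.0174). With the block Jund was also called higher with ISO (0.34, adjusted p = 0.0440), giving 9 members, and Jun in Lip+ISO against ISO (0.43, adjusted p = 0.00438), giving 4 higher. With only the compared groups in the fit, Jund was called with ISO (adjusted p = 0.0149), while Jund in Lip+ISO against Lip (0.0721) and Mafk in Lip+ISO against ISO (0.0519) were not.

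With library totals Maff in Lip+ISO against ISO was -0.008 (adjusted p = 0.980) and Mafk in the interaction -0.0537 (0.928). Over the fits that left out libraries, Mafk ranged from -0.16 to 0.0251 for ISO and from -0.17 to 0.0508 for Lip+ISO against Lip. In Lip against vehicle, Fosb ranged from -0.36 to 0.0448, Atf3 from -0.21 to 0.28 and Maff from -0.18 to 0.0618. In Lip+ISO against ISO, Fosl2 ranged from -0.0788 to 0.30, Junb from -0.71 to 0.19 and Maff from -0.15 to 0.12. In the interaction, Junb ranged from -1.01 to 0.0802, Maff from -0.18 to 0.28 and Mafk from -0.14 to 0.14. Why these values moved was not tested. With 3 libraries a group, small changes such as those of Jund and Mafk stay near the threshold.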
